A study of Mus musculus with 9 samples.

Results

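Collagen crosslinking and folding genes were followed through the formation of talc-induced adhesions in the mouse chest. The 10 genes were chosen by name: Lox, Loxl1, Loxl2, Loxl3 and Loxl4, which encode the lysyl oxidase family, Plod1, Plod2 and Plod3, which encode the lysyl hydroxylases, P4ha3, which encodes a prolyl hydroxylase subunit, and Serpinh1, which encodes the collagen chaperone Hsp47. All 10 were in the deposited table of 25652 genes, and all 10 passed the filter on low counts that left 14794 genes for testing. By the table they lie on chromosomes 18 (Lox), 9 (Loxl1 and Plod2), 14 (Loxl2), 6 (Loxl3), 19 (Loxl4), 4 (Plod1), 5 (Plod3) and 7 (P4ha3 and Serpinh1). Wild-type (WT) mice had talc suspended in saline, 200 µL at 2.0 g/kg, injected through the diaphragm into the left side of the chest. Tissue was taken 30 min later (day 0, 3 libraries), at day 3 (3 libraries) and at day 9 (3 libraries), and polyadenylated RNA was sequenced. All libraries therefore came from talc-treated mice, day 0 is the earliest time and not an untreated state, and time since talc cannot be told apart from time since the injection. The labels name the tissue as adhesion between lung and chest wall in one field and as left lung tissue joined to the chest in another, and give no strain, age or pooling. They do not say that the libraries of a day came from separate mice, so the p-values measure the spread between these libraries, which may not be the spread between mice.

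Collagen is modified inside the cell before it is crosslinked outside it. Prolyl and lysyl hydroxylases act on the chains in the endoplasmic reticulum, Hsp47 binds and stabilises the folded triple helix on its way to the Golgi, and lysyl oxidases then oxidise lysines and hydroxylysines of the secreted fibre, which join into covalent crosslinks. Hydroxylation of telopeptide lysines, the work of the Plod2 product, favours crosslinks that are hard to reverse, and these are known from fibrotic scar.

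Library totals were between 12769059 and 18701063 counts, and the values below are CPM, counts scaled to library size with TMM factors. Libraries of 1 day were not alike in tissue content. The summed level of 12 cartilage and bone markers was 886 CPM in day 0 replicate 3, 2090 CPM in day 3 replicate 1 and 2889 CPM in day 9 replicate 1, against 76.1 to 299 CPM in the other 6 libraries. The summed level of 8 alveolar type 2 markers was 5720 CPM in day 3 replicate 3, against 162 and 101 CPM in day 3 replicates 1 and 4, with 601 to 2676 CPM at day 9 and 4808 to 5264 CPM at day 0. The 8 skeletal muscle markers summed to between 49745 and 114231 CPM over the 9 libraries. These are bulk libraries, in which fewer cells of a type and less RNA per cell cannot be told apart.

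At day 9, 8 of the 10 genes were higher than at day 0 and none was lower (background 5.54% lower), with a median log2 fold change of 1.41 over the 10 genes and 0.01 over all tested genes. Of all 14794 genes tested, 15.2% were called higher in this comparison. At day 3, 5 of the 10 were higher than at day 0, against 12.9% of all tested genes, and from day 3 to day 9 a further rise was called for 4 of the 10, against 5.19% of all tested genes. No gene of the set was called lower in the other comparisons, where 3.29% of all tested genes were lower at day 3 against day 0 and 3.66% at day 9 against day 3. Without regard to the test, all 3 later libraries lay above all 3 earlier ones for 9 of the 10 genes at day 9 against day 0, all but Loxl4, where 29.3% of all tested genes did so. This held for 6 of 10 at day 3 against day 0 (24.2% of all tested genes) and for 6 of 10 at day 9 against day 3 (14.4%). A call means an adjusted p under 0.05 from edgeR's quasi-likelihood test with Benjamini-Hochberg adjustment over all tested genes, and every adjusted p below is of this kind. A test for a difference between any days passed for 8 of 10, all but Loxl4 and P4ha3, against 25.7% of all tested genes. Every comparison uses libraries of another, so the 3 counts are not independent.

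The comparisons that passed differed from gene to gene, and differences between genes were not tested across the set. Lox, Loxl3, Plod1 and Plod3 passed at day 3 and at day 9 against day 0, and the step from day 3 to day 9 did not pass for them. With the mean of the alveolar type 2 markers as a covariate, Loxl3 passed at that step (log2 0.60, adjusted p = 0.0313, within 0.0313 to 0.589 over all alternatives), and the day 3 changes of Loxl3 and Plod1 against day 0 were 0.59 and 0.26 and did not pass (adjusted p = 0.0541 and 0.181), against 1.06 and 0.59 without the covariate. Loxl1, Loxl2 and Plod2 did not pass at day 3, and passed at day 9 against both earlier days. A miss at day 3 is not a smaller change: the log2 difference of Plod2 at day 3 against day 0 was 0.69, beside 0.68 for Serpinh1 and 0.59 for Plod1, which passed. Serpinh1 passed in all 3 comparisons, but not at day 3 against day 0 with the alveolar type 2 covariate (log2 0.48, adjusted p = 0.119). Loxl4 and P4ha3 passed in none.

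**Figure D1:**
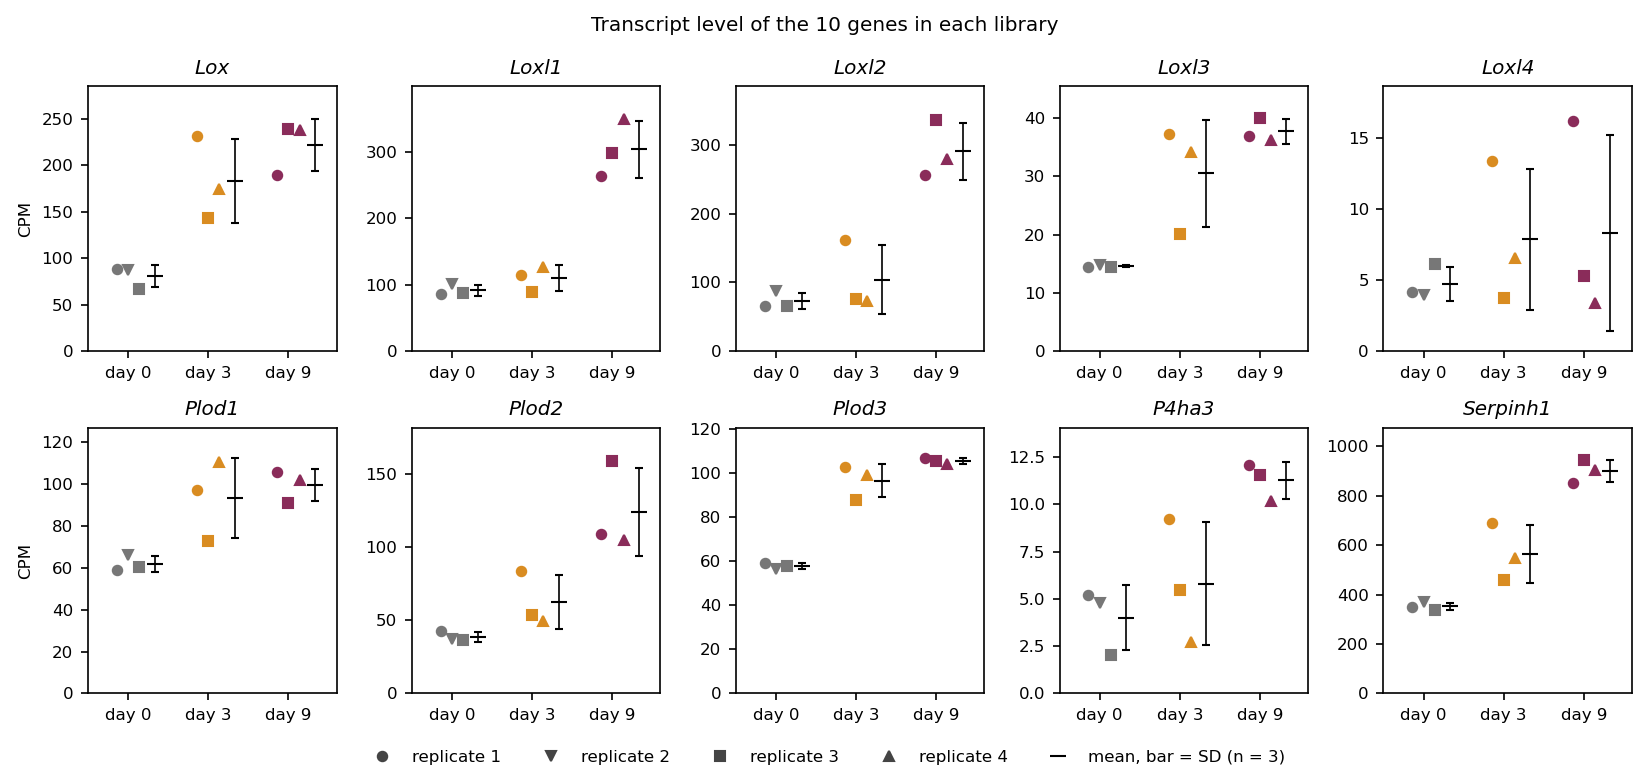
Each panel shows 1 gene in CPM (y axis, from 0) at day 0, day 3 and day 9 (x axis). Points are libraries, with a shape for each replicate number, and the bar to the right is the mean with SD (n = 3). Lox and Plod3 at day 3 already lie above all day 0 libraries, while Loxl1 and Loxl2 at day 3 overlap with day 0 and lie above it in every library at day 9.

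Lox encodes lysyl oxidase itself, which is secreted as an inactive precursor and crosslinks collagen and elastin once the propeptide is cut off. It was at 88.7, 87.7 and 67.2 CPM in the day 0 libraries (replicates 1, 2 and 3), at 232, 143 and 175 CPM in the day 3 libraries (replicates 1, 3 and 4) and at 190, 239 and 238 CPM in the day 9 libraries (replicates 1, 3 and 4). All day 3 and day 9 libraries were above all day 0 libraries, and days 3 and 9 overlapped. The level was 2.26-fold higher at day 3 than at day 0 (log2 1.18, SE 0.20, adjusted p = 0.00748) and 2.74-fold higher at day 9 than at day 0 (log2 1.45, SE 0.20, adjusted p = 0.00164). Between day 9 and day 3 the log2 difference was 0.28 (SE 0.20, adjusted p = 0.418).

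Loxl3, a family member with scavenger receptor domains in front of the catalytic domain, followed a like course at a lower level. It stood at 14.5, 14.7 and 14.5 CPM at day 0, at 37.1, 20.1 and 34.2 CPM at day 3 and at 36.8, 40.0 and 36.1 CPM at day 9, in the same order of replicates. No day 3 or day 9 library reached down to day 0, and day 3 replicate 3, the library with most lung transcripts, was the lowest of its day. The level was 2.09-fold higher at day 3 than at day 0 (adjusted p = 0.0122) and 2.58-fold higher at day 9 than at day 0 (adjusted p = 0.00239). Its call at day 3 was lost without day 0 replicate 1 or 2 (adjusted p up to 0.0567, and 0.00028 to 0.150 across the alternatives), and that at day 9 against day 0 with the replicate number as a block (0.0553, and 1.99e-07 to 0.0553). Its gene span overlaps that of Htra2 on the other strand, and no library strand is stated, so some reads may belong to Htra2.

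Loxl1, known for its part in elastic fibre assembly, rose late. Its level was 86.2, 101 and 88.1 CPM at day 0, 115, 88.8 and 127 CPM at day 3, and 264, 298 and 349 CPM at day 9. Day 3 overlapped with day 0, and each day 9 library was above all others. The fold was 3.30 at day 9 against day 0 (log2 1.72, SE 0.17, adjusted p = 0.000387) and 2.75 at day 9 against day 3 (log2 1.46, SE 0.17, adjusted p = 0.00491). At day 3 against day 0 the log2 difference was 0.26 (SE 0.16, adjusted p = 0.293). The call of Loxl1 at day 9 against day 3 was lost without the 3 cartilage-rich libraries (adjusted p = 0.0529, within 1.96e-14 to 0.0529 over all alternatives).

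Loxl2, another member with scavenger receptor domains, crosslinks collagen IV of basement membranes and has been studied as a target in fibrosis. It had the largest fold of the 10 genes at day 9 against day 0. The day 0 libraries had 66.3, 87.2 and 66.4 CPM, the day 3 libraries 162, 76.4 and 73.8 CPM and the day 9 libraries 256, 336 and 279 CPM. At day 3 the cartilage-rich replicate 1 stood alone above the day 0 range, and at day 9 all libraries were above all earlier ones. The fold was 3.96 at day 9 against day 0 (log2 1.98, SE 0.31, adjusted p = 0.00276) and 2.79 at day 9 against day 3 (adjusted p = 0.023). The call against day 3 was lost without day 3 replicate 4 or day 9 replicate 3 or 4 (adjusted p up to 0.0701, and 3.04e-05 to 0.0839 across the alternatives). At day 3 against day 0 the log2 difference was 0.51 (SE 0.30, adjusted p = 0.271), and it was 0.036 without day 3 replicate 1 (adjusted p = 0.907, within 0.143 to 0.936 over all alternatives).

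Loxl4, the remaining member of the family, did not pass in any comparison and was high where cartilage and bone markers were high. It had 4.15, 3.995 and 6.14 CPM at day 0, 13.4, 3.76 and 6.54 CPM at day 3, and 16.2, 5.33 and 3.42 CPM at day 9. In each day the library with most cartilage and bone transcripts gave the highest Loxl4 value. At day 9 against day 0 the log2 difference was 0.80 (SE 0.62, adjusted p = 0.384), it turned to -0.12 without day 9 replicate 1, it was 0.10 without the 3 cartilage-rich libraries, and it was 0.20 with the mean of the cartilage and bone markers as a covariate. It was as low, 0.17, with the mean of the alveolar type 2 markers as a covariate, and 0.47 with limma-voom. At day 3 against day 0 the 0.73 without a covariate became 0.33 without the cartilage-rich libraries, 0.51 with the cartilage and bone covariate and -0.47 with the alveolar type 2 covariate. Of the 12 markers, Col9a1 and Col10a1 had no read in at least 1 library, and 0 of 12 passed the test in any comparison.

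**Figure D2:**
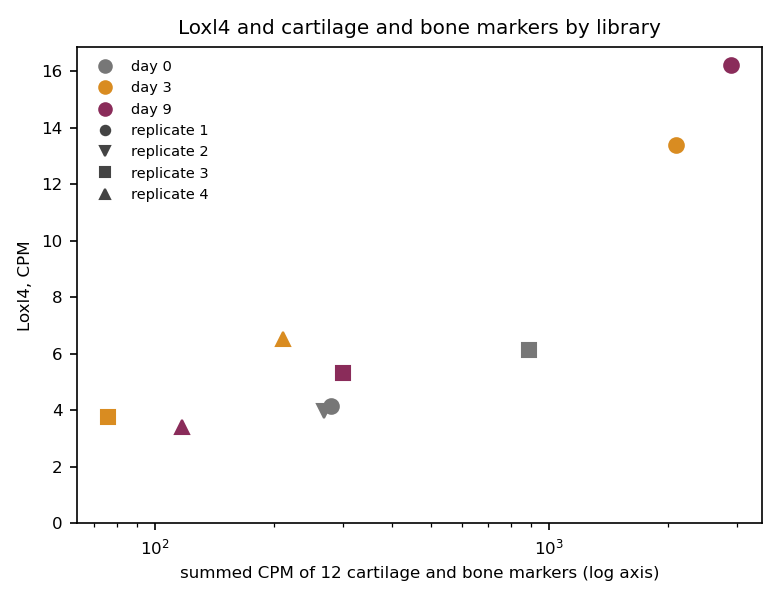
Loxl4 in CPM (y axis) is plotted against the summed CPM of 12 cartilage and bone markers (x axis, log scale) for the 9 libraries, with colour for the day and shape for the replicate number. The 2 libraries with 2090 and 2889 CPM of markers have 13.4 and 16.2 CPM of Loxl4, and the other 7 libraries have 3.42 to 6.54 CPM.

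Among the lysyl hydroxylases the log2 changes at day 3 against day 0 were 0.59 for Plod1, 0.69 for Plod2 and 0.74 for Plod3, and Plod2 had the largest of the 3 at day 9 against day 0. Plod1, whose product hydroxylates lysines of the triple helix, was at 59.2, 66.0 and 60.2 CPM at day 0, 97.04, 72.6 and 110 CPM at day 3 and 106, 91.0 and 102 CPM at day 9. Every later library was above day 0, by 1.51-fold at day 3 (adjusted p = 0.0335) and 1.61-fold at day 9 (log2 0.69, SE 0.15, adjusted p = 0.0148). The call at day 3 was lost on leaving out any single library except day 3 replicate 3 (adjusted p up to 0.117, and 0.00313 to 0.240 across the alternatives). The call at day 9 was lost on leaving out replicates 1 or 3 of day 0, or replicates 1 or 4 of day 9 (adjusted p up to 0.065, and 0.00114 to 0.176 across the alternatives).

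Plod3, an enzyme that also glycosylates hydroxylysine, had the tightest values of the set. It was at 59.2, 56.2 and 57.8 CPM at day 0, at 103, 88.0 and 99.2 CPM at day 3 and at 107, 105 and 104 CPM at day 9. The rise was 1.67-fold at day 3 against day 0 (log2 0.74, SE 0.091, adjusted p = 0.00177) and 1.83-fold at day 9 against day 0 (log2 0.87, SE 0.091, adjusted p = 0.000467). All 3 day 9 libraries were above all day 3 libraries, yet the difference of 0.13 on the log2 scale did not pass (adjusted p = 0.414). The Plod3 span overlaps Znhit1 on the other strand, with the same limit on strand as for Loxl3.

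Plod2, the telopeptide lysyl hydroxylase, was at 42.8, 37.0 and 36.5 CPM at day 0, 83.7, 53.5 and 49.8 CPM at day 3 and 109, 159 and 105 CPM at day 9. The days did not overlap at any step. The fold was 3.20 at day 9 against day 0 (log2 1.68, SE 0.24, adjusted p = 0.00168) and 1.99 at day 9 against day 3 (log2 0.99, SE 0.23, adjusted p = 0.0341), while the 1.61-fold difference at day 3 against day 0 did not pass (adjusted p = 0.0766). The call of day 9 against day 3 ended without any single library except day 3 replicates 1 and 3 (adjusted p up to 0.0986, within 0.00078 to 0.107 over all alternatives).

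The ratio of Plod2 to Plod1 within a library, which no scale factor can change, was 1.03, 1.75 and 1.03 at day 9, against 0.863, 0.736 and 0.451 at day 3 and 0.724, 0.560 and 0.606 at day 0. Day 9 was above both earlier days in every library. The log2 difference was 0.97 at day 9 against day 0 and 0.89 at day 9 against day 3, each with p = 0.1 in an exact two-sided permutation test, the smallest p that 3 against 3 libraries can give. At day 3 against day 0 it was 0.074 (exact permutation p = 0.9). In the lysyl oxidases, the ratio of Loxl1 to Lox was 0.497, 0.620 and 0.727 at day 3, against 0.972, 1.16 and 1.31 at day 0, and it was 1.39, 1.24 and 1.47 at day 9. Day 3 lay below day 0 and day 9 above day 3 without overlap, by log2 differences of -0.91 and 1.17, each again with an exact permutation p = 0.1. The ratio of Loxl2 to Lox gave -0.74 and 1.27 for the same steps, with the same p. These 3 pairs were chosen after their values had been seen, and the 9 p-values are unadjusted.

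P4ha3 encodes a catalytic subunit of prolyl 4-hydroxylase, whose product, hydroxyproline, gives the triple helix its stability. It was read at 36 to 225 counts per library. It had 5.21, 4.81 and 2.03 CPM at day 0, 9.22, 5.46 and 2.74 CPM at day 3, and 12.1, 11.5 and 10.2 CPM at day 9. The day 9 libraries were close together and above all others, while days 0 and 3 overlapped. The 2.81-fold difference at day 9 against day 0 (log2 1.49, SE 0.46) fell just short of the threshold (adjusted p = 0.0516, within 0.00982 to 0.128 over all alternatives). It passed with limma-voom (0.0266), DESeq2 (0.0106), the libraries of days 0 and 9 alone (0.00982) or the mean of the alveolar type 2 markers as a covariate (0.0454), and without day 3 replicate 1 (0.0305), 3 (0.0401) or 4 (0.0202).

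Serpinh1 climbed at each step. The level was 351, 368 and 338 CPM at day 0, 688, 458 and 547 CPM at day 3, and 853, 945 and 903 CPM at day 9. The 3 days did not overlap. The fold was 2.56 at day 9 against day 0 (log2 1.35, SE 0.16, adjusted p = 0.000852), 1.60 at day 3 against day 0 (adjusted p = 0.0257) and 1.60 at day 9 against day 3 (adjusted p = 0.0381). The call of day 3 against day 0 ended without any day 0 library or without day 9 replicate 1 or 4 (adjusted p up to 0.0945, within 0.000832 to 0.198 over all alternatives). That of day 9 against day 3 ended without any single library except day 3 replicates 1 and 3 (up to 0.114, within 0.00019 to 0.140).

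**Figure D3:**
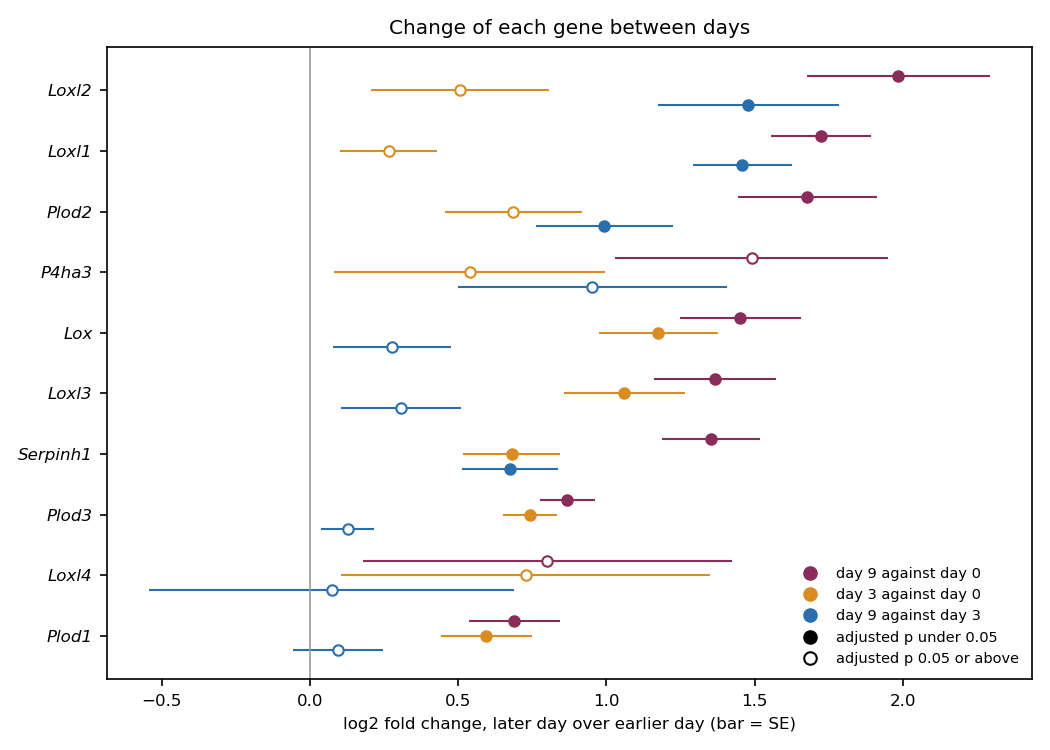
The log2 fold change of each gene (x axis, later day over earlier day, bar = SE) is drawn for the 3 pairs of days, with genes ordered by the change at day 9 against day 0. Filled points have an adjusted p under 0.05. Loxl2 and Loxl1 have changes of 1.98 and 1.72 at day 9 against day 0 and open points at day 3, and the SE of Loxl4 is 0.62.

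Promoter sequences from RefSeq (GRCm38.p6) were at hand for 5 of the 10 genes, Plod1, Plod3, P4ha3, Loxl4 and Serpinh1. The 250 bases upstream of the annotated start are shown for the 3 of these that were called higher at both day 3 and day 9 against day 0, with matches to the searched motifs in capitals.
Serpinh1, chr7:99353240-99353489, minus strand: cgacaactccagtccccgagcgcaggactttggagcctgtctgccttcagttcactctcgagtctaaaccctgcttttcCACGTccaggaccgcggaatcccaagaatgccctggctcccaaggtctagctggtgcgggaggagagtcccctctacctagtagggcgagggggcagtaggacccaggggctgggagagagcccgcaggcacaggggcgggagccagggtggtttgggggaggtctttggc
Plod3, chr5:136986769-136987018, plus strand: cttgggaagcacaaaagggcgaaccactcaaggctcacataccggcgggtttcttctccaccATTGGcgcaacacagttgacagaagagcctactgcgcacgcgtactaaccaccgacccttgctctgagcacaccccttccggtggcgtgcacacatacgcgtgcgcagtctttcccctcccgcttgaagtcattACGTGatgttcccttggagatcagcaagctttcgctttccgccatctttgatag
Plod1, chr4:147936777-147937026, minus strand: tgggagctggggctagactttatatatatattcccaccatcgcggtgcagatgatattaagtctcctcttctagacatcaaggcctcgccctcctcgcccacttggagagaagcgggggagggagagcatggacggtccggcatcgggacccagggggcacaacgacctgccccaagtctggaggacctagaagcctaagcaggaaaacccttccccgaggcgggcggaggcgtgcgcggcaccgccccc
The motifs searched on both strands were the hypoxia response core ACGTG, the AP-1 element TGANTCA, the palindromic SMAD box GTCTAGAC, the inverted heat shock units GAANNTTC and the CCAAT box. The hypoxia response core occurred in the Serpinh1 window, 171 bases before the start, and in the Plod3 window, 54 bases before it, and in 16.6% of all 32851 promoter windows of that length. A CCAAT box occurred in the Plod3 window alone among the 5 genes, and in 33.8% of all windows. The AP-1, SMAD and heat shock motifs, found in 6.75%, 0.167% and 6.69% of all windows, were in none of the 5, and the Plod1, P4ha3 and Loxl4 windows held no match. A match is a run of letters and not a bound site, and the lack of one speaks only of these windows.

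The calls that involve day 3 were less firm than those of day 9 against day 0. Without 1 library of the 9, between 2 and 5 of the 10 genes were called at day 3 against day 0. Between 1 and 4 were called at day 9 against day 3, and 7 to 9 at day 9 against day 0. Of all tested genes, 4.6% to 17.1%, 1.8% to 16.4% and 9.24% to 18.7% were then called higher, in that order. Lox and Plod3 kept their day 3 call without any single library, and neither kept it when the 3 cartilage-rich libraries were left out together. Their log2 changes in the 6 libraries left were 0.85 for Lox and 0.69 for Plod3, against 1.18 and 0.74 in all 9. The adjusted p was then 0.0504 for Lox (3.22e-06 to 0.0983 across the alternatives) and 0.0514 for Plod3 (4.81e-11 to 0.0727), and no gene of the set was called at day 3 against day 0, where 3.32% of all tested genes were. With the cartilage and bone markers as a covariate in all 9 libraries, all 5 day 3 calls held (adjusted p = 0.0123 for Lox, 0.013 for Loxl3, 0.0414 for Plod1, 0.00293 for Plod3 and 0.0332 for Serpinh1). Of all tested genes 11.9% were then called higher. With the alveolar type 2 markers as the covariate instead, Lox and Plod3 kept their call (adjusted p = 0.037 and 0.00549). Loxl3, Plod1 and Serpinh1 did not (0.0541, 0.181 and 0.119), where 7.01% of all tested genes were called higher. Day 3 replicate 1, the most cartilage-rich library of its day, was the highest of day 3 for 8 of the 10 genes, all but Loxl1 and Plod1. In the authors' deposited table, 9 of the 10 genes were higher at day 9 against day 0 at an FDR under 0.05, against 9.21% of all genes with an FDR there, 3 at day 3 against day 0 (7.13%) and 3 at day 9 against day 3 (3.72%). P4ha3 was the additional one at day 9 against day 0 (FDR 0.011 in the authors' deposited table).

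To compare levels of different genes a length is needed, if reads were spread over whole transcripts, which was not tested. The deposited table gives none, so CPM was divided by the longest protein-coding transcript of the gene in GENCODE release M21. Serpinh1 stood first on every day, with 155 ± 6.73 CPM per kb at day 0, 248 ± 51.0 at day 3 and 396 ± 20.2 at day 9 (SD, n = 3 each). At day 9 it was followed by Loxl1 (92.0 ± 13.0), Loxl2 (54.6 ± 7.74) and Lox (46.9 ± 5.91), of which Loxl2 and Lox lay within their spread. Before the division Loxl1 and Loxl2 were at 303 ± 42.8 and 290 ± 41.1 CPM at day 9, so their separation beyond the spread rests on the lengths. Plod2 (33.9 ± 8.22), Plod3 (32.1 ± 0.426) and Plod1 (30.7 ± 2.40) could not be separated by their spread at day 9, nor could Loxl1 (33.5 ± 5.96) and Lox (38.7 ± 9.48) at day 3. Loxl3 (9.19 ± 0.506), P4ha3 (4.78 ± 0.414) and Loxl4 (2.23 ± 1.85) were the lowest at day 9.

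Type I collagen did not pass at day 3, while Col3a1 did. Col1a1 and Col1a2, the chains of type I collagen, were at 3284 ± 2228 and 2537 ± 1620 CPM at day 3, against 3356 ± 700 and 3100 ± 657 CPM at day 0 (SD, n = 3; adjusted p = 0.968 and 0.635). Col3a1, the type III chain, was 2.20-fold higher at day 3 (adjusted p = 0.0374), and Eln, the elastin gene whose product lysyl oxidases also crosslink, was 2.15-fold lower (adjusted p = 0.0181). Of the 8 substrate genes, 1 was therefore called higher and 1 lower at day 3 against day 0, with a median log2 fold change of 0.08. Of all tested genes, 12.9% were higher and 3.29% lower there, so 1 of 8 higher is near the share of all genes. At day 9 against day 0, 6 of 8 were higher (15.2% of all tested genes), with a median of 1.80. Col3a1 was 5.91-fold higher (adjusted p = 0.000928), Eln 5.79-fold (adjusted p = 0.000387), and the fibril-initiating type V chains Col5a3 and Col5a2 3.80-fold and 3.58-fold (adjusted p = 0.00353 and 0.00227). Col1a2 was 2.56-fold higher (adjusted p = 0.0465) and Col1a1 2.59-fold (adjusted p = 0.0544). Eln was 12.4-fold higher at day 9 than at day 3 (adjusted p = 0.00157). The day 3 call of Col3a1 was lost without any single library except day 3 replicates 3 and 4 (adjusted p up to 0.130), that of Eln without day 0 replicate 1 or 2 (up to 0.0742), and the day 9 call of Col1a2 without any single library of days 0 and 9 (up to 0.146).

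Each of the 10 genes was then set against the summed level of Col1a1, Col1a2 and Col3a1 in its own library, to ask whether it changed by more or less than the collagen it acts on. Lox was at 14.6, 22.9 and 24.2 CPM per 1000 CPM of these 3 chains at day 3, against 9.89, 9.14 and 10.7 at day 0, and it was at 6.61, 9.09 and 8.79 at day 9. Relative to collagen, Lox was higher at day 3 than on either other day in every library. Loxl3 behaved alike, with log2 differences of 0.87 at day 3 against day 0 and -1.25 at day 9 against day 3, where Lox had 1.02 and -1.31. Serpinh1 was at 29.7, 35.9 and 33.4 per 1000 at day 9, against 43.2, 73.2 and 75.6 at day 3 and 39.2, 38.4 and 54.0 at day 0. At day 9 against day 0, Lox, Loxl3, Plod1, Plod3 and Serpinh1 lay below without overlap, with log2 differences of -1.06 for Plod1 and -0.88 for Plod3. The summed collagen was 26311 to 28719 CPM at day 9 and 6255 to 9591 CPM at day 0, so an unchanged gene would lie below too. The median log2 fold change of all tested genes was 0.01, and how many of them lay below relative to collagen was not counted. Loxl1, Loxl2, Plod2 and P4ha3 overlapped in every comparison, with log2 differences of -0.031, 0.24, -0.093 and -0.15 at day 9 against day 0. With 3 libraries a day no ratio could pass: the exact permutation p of those without overlap was 0.1, and 0.167 at the least after adjustment over the 10 genes. With Col1a1 alone as the denominator the difference at day 9 against day 0 was 0.063 for Lox, -0.04 for Serpinh1 and -0.027 for Loxl3, so the lower ratio of these 3 genes at day 9 depended on the chains in the denominator.

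**Figure D4:**
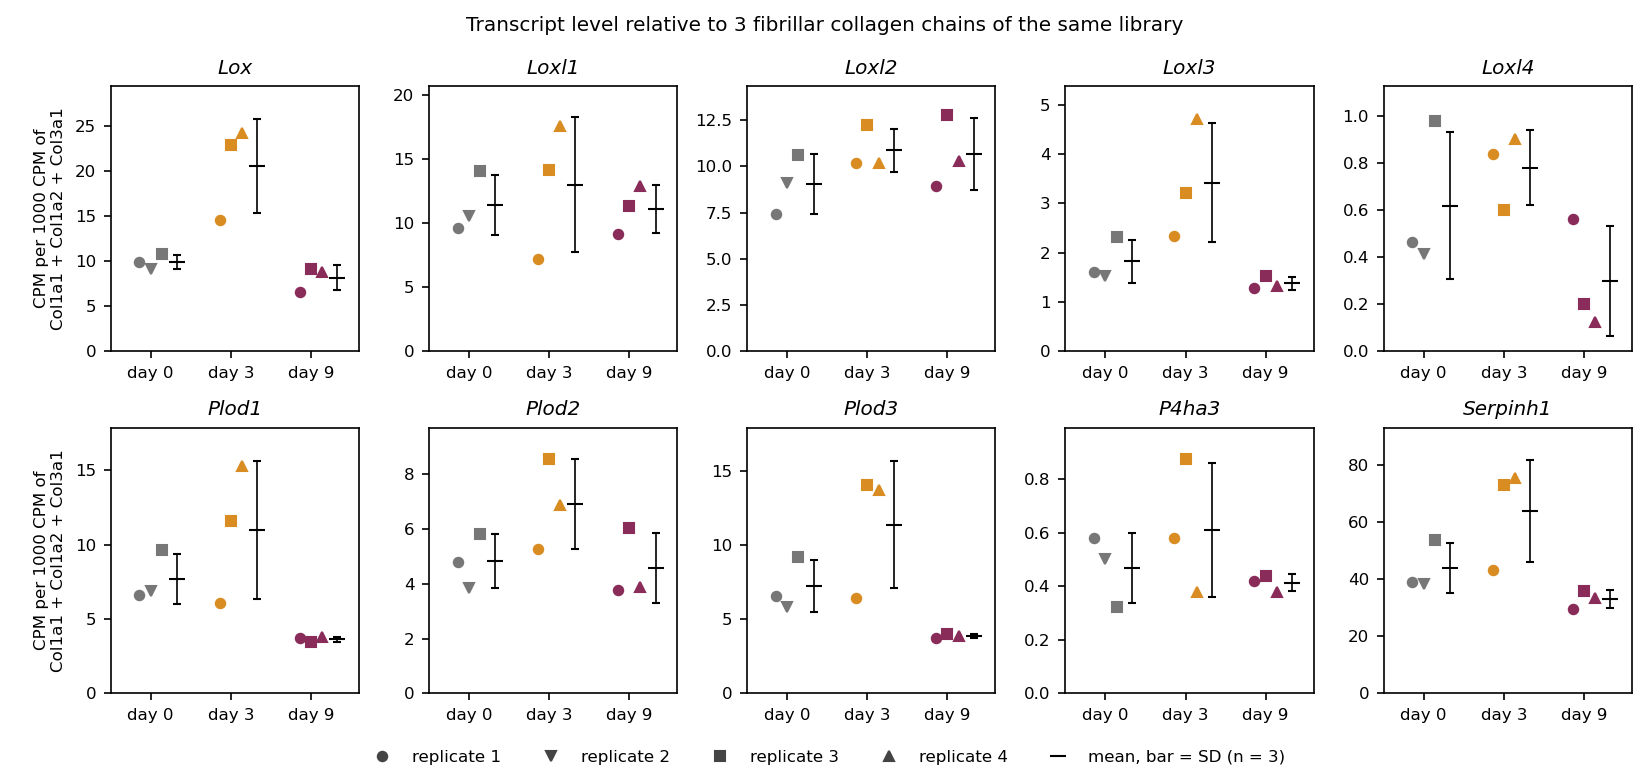
Each panel gives 1 gene as CPM per 1000 CPM of Col1a1, Col1a2 and Col3a1 of the same library (y axis, from 0) by day (x axis), with libraries as points and the mean with SD (n = 3) to the right. Lox lies between 14.6 and 24.2 at day 3 and at 10.7 or below on the other days, and the 3 Plod3 libraries of day 9 are below all others.

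Most other genes of collagen folding were higher at day 9. Of 16 partners in the endoplasmic reticulum, 11 were higher at day 9 against day 0 and none lower, with a median log2 fold change of 0.91, and 8 were higher at day 3. Of all tested genes, 15.2% were higher and 5.54% lower at day 9 against day 0, and 12.9% were higher at day 3. P4ha2, P3h2, Colgalt2, Mia3 and Tmem38b did not pass at day 9 against day 0, with log2 differences of 0.47, -0.26, -0.19, -0.20 and -0.31. The largest changes at day 9 were in Fkbp10, a peptidyl prolyl isomerase that works with Hsp47 and Plod2 (3.31-fold, adjusted p = 0.000834), in Crtap and P3h1, which form the prolyl 3-hydroxylation complex (2.77-fold and 2.20-fold, adjusted p = 0.00102 and 0.00509), and in Colgalt1, a collagen galactosyltransferase (2.20-fold, adjusted p = 0.000574). Fkbp10 was already 2.13-fold higher at day 3 (adjusted p = 0.0112). From day 3 to day 9, 4 of 16 rose, Crtap, P3h3, P3h4 and Fkbp14, and 1 fell, Tmem38b, which encodes a cation channel of the endoplasmic reticulum (2.31-fold lower, adjusted p = 0.0148). Of all tested genes, 5.19% rose and 3.66% fell at that step. The rises of Crtap and P3h4 were lost without any single library except day 3 replicates 1 and 3 (adjusted p up to 0.142), that of Fkbp14 without any except day 3 replicate 3 and day 9 replicate 1 (up to 0.123), and the call of Tmem38b without day 9 replicate 1 or 4 (up to 0.066).

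Among procollagen processing genes, the proteinases Bmp1, Adamts2, Adamts3 and Adamts14 were higher at day 9 than on both earlier days. Of 9 genes 8 could be tested, and 5 of these were higher at day 9 against day 0 (15.2% of all tested genes), with a median log2 fold change of 1.24. Bmp1, which cleaves the C-propeptide of procollagen and the propeptide of lysyl oxidase, was at 265, 352 and 287 CPM at day 9, against 81.8, 92.0 and 90.5 CPM at day 0 (3.42-fold, adjusted p = 0.000807). The N-proteinases Adamts3, Adamts14 and Adamts2 were 4.96-fold, 3.91-fold and 3.06-fold higher (adjusted p = 0.0021, 0.0024 and 0.000609). The call of Adamts14 against day 3 was lost without any single library except day 3 replicates 1 and 3 (adjusted p up to 0.126). Pcolce2, an enhancer of Bmp1, had all later libraries below day 0 and did not pass (log2 -1.93 at day 9 and -1.79 at day 3, adjusted p = 0.0853 and 0.113), and Tll1, a Bmp1 relative, was at 0.23 and 0.19 (adjusted p = 0.595 and 0.669). Of these 8, only Tgm2, a transglutaminase that crosslinks matrix proteins by another chemistry, passed at day 3 against day 0. This 1 of 8 is near the 12.9% of all tested genes called higher there. Tgm2 was 1.56-fold higher at day 3 than at day 0 (adjusted p = 0.0206) and 1.54-fold lower at day 9 than at day 3 (adjusted p = 0.0328). The first of these calls was lost without any day 0 library or without day 9 replicate 4 (adjusted p up to 0.0913), and the second without any single library except day 3 replicate 3 (up to 0.116). Tgm2, Pcolce2, Tll1, P4ha2, P3h2, Colgalt2, Mia3, Tmem38b, P3h3, P3h4 and Fkbp14 were named after their values had been seen.

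Of 7 genes listed as partners in lysyl oxidase activation and regulation, 5 were higher at day 9 against day 0 (median log2 fold change 1.08) and 2 at day 3, where 1 was lower. Of all tested genes, 15.2% were higher at day 9, and 12.9% were higher and 3.29% lower at day 3. Efemp2, the fibulin that brings lysyl oxidase to elastin, was 1.79-fold higher at day 3 and 2.11-fold at day 9 against day 0 (adjusted p = 0.00357 and 0.000609). Fn1, the fibronectin gene, was 3.10-fold and 6.19-fold higher (adjusted p = 0.00715 and 0.000548). Fbn1, which encodes the microfibril protein fibrillin 1, was 2.97-fold higher at day 9 (adjusted p = 0.000316) and 1.31-fold at day 3 (adjusted p = 0.0984). Sparc was 2.25-fold higher at day 9 (adjusted p = 0.0177) and at log2 -0.07 at day 3 (adjusted p = 0.882). Its day 9 call was lost without any day 0 library or without day 9 replicate 1 or 3 (up to 0.0711). Postn, the matricellular protein periostin that promotes activation of lysyl oxidase through Bmp1, was 1.91-fold lower at day 3 (adjusted p = 0.0368) and 2.07-fold higher at day 9 (adjusted p = 0.0189), and was likewise named after its values had been seen. The day 3 call of Postn was lost without replicate 1 or 2 of day 0, replicate 4 of day 3 or replicate 3 or 4 of day 9 (adjusted p up to 0.126), and its day 9 call without day 0 replicate 1 or day 9 replicate 1 or 4 (up to 0.0646).

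**Figure D5:**
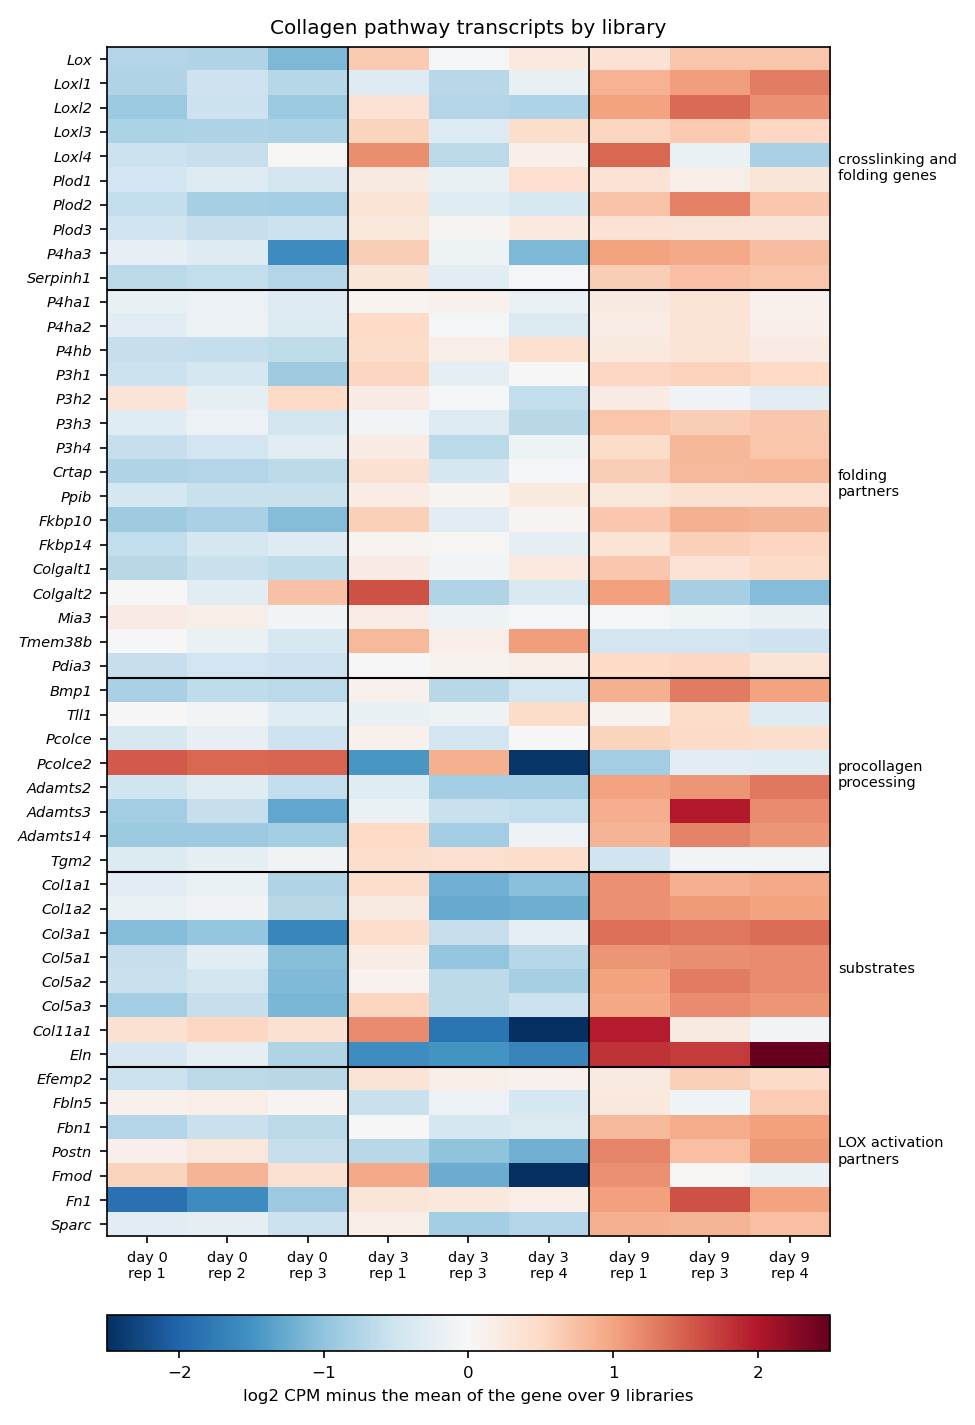
Rows are the 10 genes and the tested genes of 4 lists, columns are the 9 libraries from day 0 to day 9, and colour is log2 CPM minus the mean of the gene over the 9 libraries. Most rows are blue at day 0 and red at day 9, with Eln at its lowest at day 3 and Loxl4 at its highest in replicate 1 of days 3 and 9.

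Summed fibroblast markers at day 3 overlapped with day 0, and at day 9 lay above both earlier days. The summed level of 10 fibroblast markers was 3711 to 4305 CPM at day 9 and 1110 to 1706 CPM at day 3, against 1466 to 1864 CPM at day 0. In that list 8 of 10 were higher at day 9 against day 0 (15.2% of all tested genes), with a median log2 fold change of 1.30. The exceptions were Pdgfra (log2 -0.07) and Pdgfrb (0.01). At day 3 against day 0, 2 were higher (Pi16 and Cthrc1) and 2 lower (Pdgfrb and Postn), with a median of -0.14, beside 12.9% and 3.29% of all tested genes. Cthrc1, a marker of collagen-producing fibroblasts, had the largest change of the 10 on both days. It was 3.13-fold higher at day 3 (adjusted p = 0.0144) and 9.77-fold at day 9 against day 0 (adjusted p = 0.000486). Its day 3 call was lost without any single day 0 library (up to 0.0598). All 10 macrophage markers were higher at both days, with summed levels of 1548 to 2082 CPM at day 9 and 1177 to 1780 CPM at day 3, against 309 to 429 CPM at day 0. The 6 smooth muscle and myofibroblast markers summed to 1687 to 1786 CPM at day 9 and 3297 to 9530 CPM at day 3, against 2146 to 2713 CPM at day 0. Most of these sums was Des: the other 5 markers summed to 256 to 472 CPM at day 9 and 204 to 259 CPM at day 3, against 310 to 358 CPM at day 0. Des, which skeletal muscle also expresses, was called higher at day 3 against day 0 in this list, while Myh11 and Cnn1 were called lower. The call of Des was lost without any single library of days 0 and 9 (adjusted p up to 0.101) and that of Cnn1 without any day 0 library or day 3 replicate 4 (up to 0.0799). The 8 endothelial markers summed to 707 to 1057 CPM at day 9 and 595 to 1618 CPM at day 3, against 1635 to 1826 CPM at day 0. The highest day 3 library, replicate 3, was just under the day 0 range. At day 3 against day 0, 0 of 8 passed, with log2 changes from -1.68 to 0.11. At day 9 against day 0, Tek alone was called lower (log2 -1.60, adjusted p = 0.0326). The 6 mesothelial markers summed to 52.8 to 429 CPM at day 9 and 24.5 to 81.1 CPM at day 3, against 52.4 to 142 CPM at day 0. Of these Wt1 was called higher at day 9 against day 0 (12.4-fold, adjusted p = 0.0446), and the other 5 did not pass, the lowest at log2 -0.17. Wt1 had only 4 and 8 counts in day 0 replicates 1 and 2, and 172 in replicate 3. Its log2 change ran from 3.08 to 6.87 without 1 library. The calls of Tek and Wt1 were each lost without 6 of the 9 libraries left out singly (adjusted p up to 0.112 for Tek and 0.127 for Wt1). For Tek these were the libraries of days 0 and 9. For Wt1 they were day 0 replicates 1 and 2, day 3 replicate 1 and the day 9 libraries. No marker of these 5 lists was without reads in any library. The part of these cells in the changes of the 10 genes was not tested.

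The genes whose profiles lay closest were found by the root mean square difference of centred log2 CPM over the 9 libraries, among non-members with a mean of at least 10 CPM. For Lox these were Ckap4 (0.097), Gpx7 (0.15) and Fkbp10 (0.18), and for Loxl3 they were Rab3il1 (0.12), Medag (0.18) and Csf1 (0.19). For Loxl1 they were Gxylt2 (0.17), Fbn1 (0.17) and Col18a1 (0.18). Loxl2 was closest to Col5a3 (0.15), Col5a2 (0.17) and Bmp1 (0.18). Plod1 was nearest to Fam89b (0.068), Anapc15 (0.082) and Atp6v1e1 (0.083), Plod2 to Adgra2 (0.17), Glb1 (0.18) and Srpx (0.19), and Plod3 to Ppib (0.056), Kdelr2 (0.071) and Actr3 (0.072). Serpinh1 was nearest to Crtap (0.087), Rcn1 (0.099) and Ikbip (0.12). Within the set, Lox and Loxl3 were each other's nearest (0.18), as were Plod1 and Plod3 (0.15), while Loxl1 was nearest to Loxl2 (0.35), Loxl2 to Plod2 (0.30) and Plod2 to Serpinh1 (0.23). Small values are easier to reach for genes that changed little, such as Plod1.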

How the data were processed

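RNA was sequenced from 9 mouse tissue libraries, 3 per day. The authors deposited 1 table with the count of reads per gene and library, a TPM column, log2 fold changes between days and FDR-adjusted p-values. The aligner, the counter and the library strand are not given in the sources used. GRCm38 (mm10) is named per the submitters' processing notes, yet of 25597 identifiers shared with GENCODE M21 only 567 begin at one position in both, so the table's own coordinates are left out. The deposited TPM were a constant multiple of the count within each library (relative spread 3.2e-11), carry no gene length, and were not used further. 3 lines of the table were emptied for this work.

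Counts were tested with edgeR 4.0.16 in R 4.3.3 (filterByExpr by day, TMM factors of 0.906 to 1.15, glmQLFit with 1 mean per day over 9 libraries, 6 residual degrees of freedom), two-sided, after a check on simulated data. limma 3.58.1, DESeq2 1.42.0 and other settings were alternatives. Ratios were compared by exact permutation. No pair of libraries of 1 day agreed within sampling noise (chi-square per degree of freedom 8.35 to 147). All 10 genes were named. Of the other lists, up to 4 genes per list and direction that passed at day 9 against day 0 were named by that change. Col1a1, Col1a2 and Col3a1 were always named. Besides the genes so marked above, Des, Cnn1, Pdgfra, Pdgfrb and Pi16 were named outside this rule, after their values had been seen. The genes and lists were chosen with earlier results of these data known.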

Additional observations from a re-analysis of the deposited data

How the results depend on the processing

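At day 9 against day 0, 8 of the 10 genes were called, and 6 to 9 under every alternative (7 to 9 without 1 library). Under the alternatives apart from the 2-fold minimum, 5.25% to 22.7% of all tested genes were called higher (9.24% to 18.7% without 1 library). No gene of the set was called lower under any alternative. For the difference between any days, 8 genes passed, 6 to 9 under alternatives other than the replicate block (7 to 9 without 1 library). Of all tested genes 25.7% passed this test with the main settings, and their share under the alternatives was not counted. The counts of 5 at day 3 against day 0 and 4 at day 9 against day 3 became 2 and 1 with only the 2 days compared (5.14% and 1.17% of all tested genes were then called higher), 0 and 1 without the 3 cartilage-rich libraries (3.32% and 0.92%), and 2 and 5 with the alveolar type 2 (lung) covariate (7.01% and 6.74%). They were 2 and 2 with a 2-fold minimum, for which the share of all tested genes was not counted. Without 1 library they ranged from 2 to 5 (4.6% to 17.1% of all tested genes) and from 1 to 4 (1.8% to 16.4%). In 540 refits of single changes of the 10 genes, 456 kept direction and side of the threshold, 65 lost and 8 gained a call, and 11 turned sign. Correlations of same-numbered deviations ran from -0.248 to 0.472, and not every library was closest to its own number. With 3 libraries a day, which differed in tissue content, these values cannot decide whether the numbers of the labels pair the libraries. With the replicate block, 6 genes were called at day 9 against day 0 (5.25% of all tested genes higher), 0 at day 3 against day 0 (1.26%), 1 at day 9 against day 3 (0.554%) and 4 between any days.

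The 4 lists of folding partners, processing enzymes, substrates and lysyl oxidase partners held 16, 8, 8 and 7 tested genes. Over them, 27 genes were higher and 0 lower at day 9 against day 0, beside 15.2% and 5.54% of all tested genes. Without 1 library the counts were 23 to 29 and 0 to 1 (9.24% to 18.7% of all tested genes higher). Lower calls were 1 by limma-voom or with only these days and 2 with the lung covariate. For day 3 against day 0, 12 were higher and 2 lower, beside 12.9% and 3.29% of all tested genes. Without 1 library these were 6 to 14 and 0 to 5 (4.6% to 17.1% of all tested genes higher). The counts of 12 and 2 became 5 and 1 with only these days (5.14% of all tested genes higher) and 0 and 0 with the replicate block (1.26%). They were 7 and 1 with the lung covariate (7.01%) and 2 and 3 without the cartilage-rich libraries (3.32%). With a 2-fold minimum they were 3 and 1, for which the share of all tested genes was not counted. At day 9 against day 3, 17 were higher and 2 lower, beside 5.19% and 3.66% of all tested genes. Without 1 library these were 8 to 23 and 0 to 2 (1.8% to 16.4% of all tested genes higher). The counts of 17 and 2 became 5 and 0 with only these days (1.17% of all tested genes higher) and 3 and 0 with the replicate block (0.554%). Lower calls were 0 without the cartilage-rich libraries and 1 with a 2-fold minimum.

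Fold changes turned sign only where the change of all 9 libraries had not been called. Loxl4 turned to -0.12 at day 9 against day 0 without day 9 replicate 1 (-0.12 to 1.17 without 1 library) and to -0.47 at day 3 with the lung covariate. At day 9 against day 3 it was -0.072 with limma-voom, -0.051 with the replicate block, -0.31 with the cartilage covariate, -0.23 without the cartilage-rich libraries and -0.78 to 0.69 without 1 library. At day 3 against day 0 without the cartilage-rich libraries, Loxl2 was -0.035, P4ha3 -0.29 and Col5a2 -0.24. With the replicate block, Col1a1 was 0.074 and Sparc 0.026 there. Without 1 library, the ranges there were -0.75 to 0.21 for Col1a1, -0.060 to 0.44 for Col5a2 and -0.45 to 0.075 for Sparc. P3h3 was 0.11 there with the replicate block and 0.022 with the lung covariate (-0.20 to 0.11 without 1 library), and P3h4 was -0.054 with that covariate. Tgm2 at day 9 against day 0 was -0.016 with RLE factors, -0.015 with DESeq2, -0.027 with the replicate block and -0.052 to 0.14 without 1 library. Pcolce2 at day 9 against day 3 was 0.44 with limma-voom, 0.35 with the replicate block, 0.28 with the cartilage covariate and -0.61 to 1.47 without 1 library, where it passed without day 3 replicate 3 (adjusted p = 0.00962), and Tek was -0.88 to 0.23 without 1 library. Relative to collagen at day 9 against day 0, the log2 difference with Col1a1 alone was 0.063 for Lox, 0.32 for Loxl1, 0.26 for Plod2 and 0.21 for P4ha3. Without the cartilage-rich libraries it was 0.26 for Loxl1 and 0.17 for Plod2. Without 1 library it was -0.15 to 0.13 for Loxl1, -0.31 to 0.054 for Plod2 and -0.39 to 0.030 for P4ha3. For Loxl1 that range was -0.15 to 0.49 at day 3 against day 0 and -0.52 to 0.12 at day 9 against day 3. For Loxl2 at day 9 against day 3 it was -0.17 to 0.084, and 0.040 without the cartilage-rich libraries. The causes were not tested.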
